A study of Caenorhabditis elegans with 2 samples.

Results

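The genes described here are the 612 nuclear genes that the Ensembl annotation of the worm genome classes as tRNA genes, of 46890 nuclear genes in all. They were chosen by that class alone, and the 22 mitochondrial tRNA genes were left out. For each gene, the strongest LSY-2 peak was sought whose summit lay between 1000 bp upstream and 200 bp downstream of the gene's start. A tRNA gene is transcribed by RNA polymerase III from a promoter inside the gene itself. The factor TFIIIC binds its A box and B box there and places TFIIIB, which recruits the polymerase, just upstream of the start, and a run of T after the gene ends transcription. LSY-2 is a zinc finger protein known for its part in the left and right difference between the ASE taste neurons of C. elegans, and the labels do not state why its binding was mapped.

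The study mapped the binding of eGFP-tagged LSY-2 by chromatin immunoprecipitation with sequencing in L1 larvae, the first larval stage. Both biological replicates were whole worms of pooled males and females of the strain OP367, which carries the unc-119(tm4063) III mutation and the lsy-2 transgene insertion wgIs367. There was 1 group and no second condition, so genes are compared with genes and not treatments with controls. The labels do not say which promoter drives the transgene, and with whole worms the cells that gave a peak cannot be told apart.

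Each peak has a signal, the authors' own value per peak, and the sources used here do not give its statistic or scaling. Signals are therefore used only to rank and describe peaks within a list. The list of 4218 peaks that passed the authors' reproducibility step (IDR, the irreproducible discovery rate) had signals from 42.2 to 10307 with a median of 87.4. It was drawn from a list of 30000 peaks called on both replicates pooled, and each replicate had its own list of 30000 peaks. The lists hold no read counts, so the depth behind a peak is unknown, and no list from an untagged strain was used here.

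An IDR peak lay in the window of 186 tRNA genes, or 30.4% of 612 (95% Clopper-Pearson interval 26.8 to 34.2%). Of all nuclear genes 10.5% had one, and of the 19973 protein-coding genes 16.9% (3385 genes). Intervals here cover the counting of genes only. Neighbouring genes can share a peak, and genes are not replicates of an experiment. In the pooled list 362 tRNA genes had a peak, or 59.2% (55.1 to 63.1%), where 33.8% of all genes and 39.0% of protein-coding genes did. In replicate 1 the count was 390 tRNA genes (63.7%, against 34.2% of all genes), and in replicate 2 it was 379 (61.9%, against 36.1%). A peak was present in both replicate lists at 328 tRNA genes, in replicate 1 alone at 62 and in replicate 2 alone at 51, and 167 tRNA genes had none in any of the 4 lists.

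Most summits stood near the start of the tRNA gene. Among the 186 genes, the strongest IDR summit lay at a median of 29 bp upstream of the start, at position -29, with quartiles at -53 and 6.5. In the 50 bp just before the start lay 84 of them (45.2%, interval 37.9 to 52.6%), and 51 (27.4%) lay at or past the start. Between 100 bp upstream and 50 bp downstream there were 138 (74.2%), and more than 300 bp upstream 24 (12.9%). Protein-coding genes with an IDR peak had a median position of -226 with quartiles at -411 and -128. Of these genes 229 (6.77%) had the summit in the last 50 bp before the start and 1226 (36.2%) more than 300 bp upstream. The snoRNA genes, another class of short RNA genes, had a peak at 133 of 346 genes (38.4%), a larger share than either class. The median position of their summits fell between those of the 2 classes, at -76, with 22.6% in the last 50 bp. The spread was wider than in either class, with quartiles at -464 and -50. More than 300 bp upstream lay 32.3%, and 5.26% lay at or past the start. Counted by any IDR summit within 100 bp of the start, on either side, 155 tRNA genes (25.3%, interval 21.9 to 29.0%) had one. Of all nuclear genes 2.78% did, and of protein-coding genes 3.27%. A median position near the start was not particular to tRNA genes. It was 13 at the 809 genes of the class ncRNA with an IDR peak, and -53 at the 27 snRNA genes with one.

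**Figure D1:**
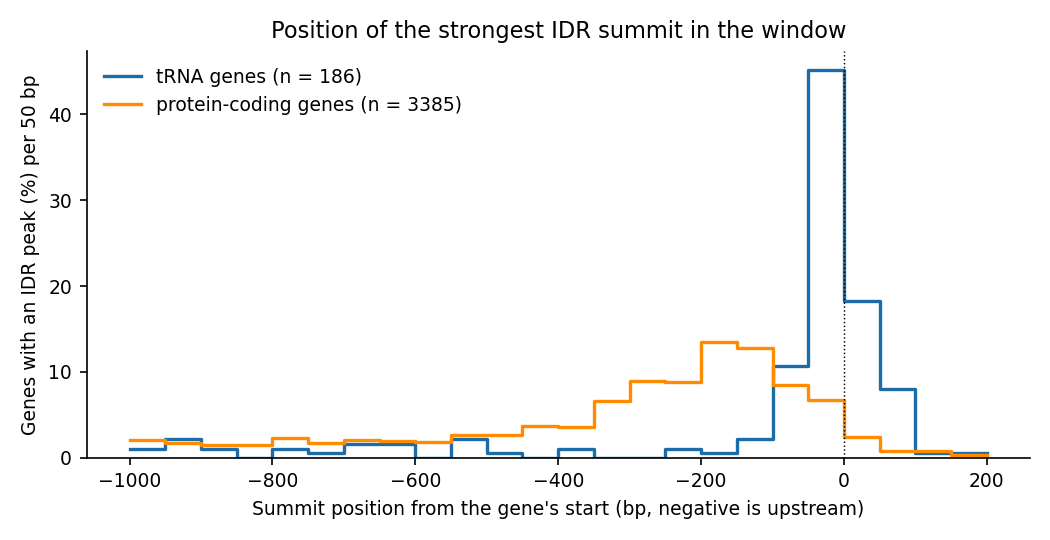
Position of the strongest IDR summit in the window, in bp from the start of the gene with negative values upstream, as the percent of genes with an IDR peak per 50 bp, for 186 tRNA genes and 3385 protein-coding genes. The tRNA line reaches 45.2% in the 50 bp before the start, where the protein-coding line is at 6.77%.

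The nearest IDR summit on either side was also taken for every tRNA gene, without the window. It lay 1 to 100 bp upstream of 106 genes and 0 to 99 bp downstream of the start of 49. Farther out but within 1000 bp, 29 genes had it upstream and 29 had it downstream. At the edges of the window the last genes taken in were K04C2.t1 at -994 (signal 103.9), H08J11.t5 at -976 (61.7), R04D3.t3 at -938 (118.7) and Y65A5A.t3 at -936 (47.7). The first left out were R11.t3 at -1012 (114.5), T01B4.t2 at -1030 (92.6), ZK970.t2 at -1061 (176) and rte-4 at -1100 (85.6). On the downstream side C18A11.t2 at 157 (60.5), C56G7.t1 at 110 (49.7), W09G10.t2 at 79 (127.7) and C04A2.t1 at 70 (78.9) were inside. Outside were Y22D7AL.t3 at 213 (58.3), F13G11.t1 at 279 (84.6), rte-5 at 300 (58.7) and H08J11.t2 at 364 (61.7). Signals just inside the upstream edge ran from 47.7 to 118.7 and just outside it from 85.6 to 176.

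The letters around the start are shown for a pair of the strongest genes, because the summit falls just before the gene and not inside it. K11H12.t1, the gene for the selenocysteine tRNA, and C33G3.t2, a lysine tRNA gene, are printed from 50 bp upstream of the start to the end of the gene in the WBcel235 (ce11) genome. Capitals mark GTTCNANNC, the core of the B box, where N is any base. The summits lay at -53, just beyond the printed letters, and at -39. Neither gene had a match to the A box as searched.
K11H12.t1 (chrIV:658131-658266, plus strand): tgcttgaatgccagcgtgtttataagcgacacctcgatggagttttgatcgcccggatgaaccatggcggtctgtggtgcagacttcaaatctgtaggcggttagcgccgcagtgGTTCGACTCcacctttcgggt
C33G3.t2 (chrX:14063946-14064068, minus strand): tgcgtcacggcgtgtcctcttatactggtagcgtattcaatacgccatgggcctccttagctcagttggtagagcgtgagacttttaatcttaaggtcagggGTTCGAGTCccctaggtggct
This core was present in 587 of 612 tRNA genes (95.9%) on the gene's own strand, and a match to the A box in 443 (72.4%). The A box was searched as TRGYNNARNGG, where R is A or G and Y is C or T. That pattern has a fixed length, so a gene without a match may hold an A box of another length. In 72 bp windows centred on the summits of the 4055 other IDR peaks, the core was found in 1.16% and the A box in 1.23%. Genes with the core had an IDR peak in 181 of 587 cases (30.8%) and genes without it in 5 of 25. With the A box match the count was 139 of 443 (31.4%) and without it 47 of 169 (27.8%).

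Signals at tRNA genes lay in the lower part of the IDR list. At the 186 genes they ran from 42.4 to 277 with a median of 71.7 and quartiles of 57.2 and 104.6. Protein-coding genes with an IDR peak had a median signal of 120.5, and all genes with one 104.5. In these medians a peak shared by several genes counts once per gene. The 186 genes shared 163 distinct peaks, 3.86% of the 4218. With each peak counted once, the median signal was 69.4 for these and 88.4 for the other 4055 IDR peaks. When the list was cut into 4 equal parts from the strongest to the weakest, 10 of the 163 peaks (6.13%) stood in the first, 45 (27.6%) in the second, 62 (38.04%) in the third and 46 (28.2%) in the last. The strongest ranked 514th in the list.

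How far tRNA genes stood above protein-coding genes therefore varied with the number of peaks counted. Among the 500 strongest pooled peaks, with signals of at least 285, none lay in a tRNA gene's window (0 of 612, upper limit of the interval 0.601%), while 3.30% of protein-coding genes had one. Among the strongest 1000, 9 tRNA genes (1.47%) and 6.17% of protein-coding genes had one. At 2109 peaks, the stronger part of the IDR list, the shares were 10.6% of tRNA genes (65 genes, interval 8.29 to 13.3%), 11.01% of protein-coding genes and 6.27% of all genes. At the full 4218 the shares were 30.4 and 16.9%, and at 10000 pooled peaks 45.6% (279 tRNA genes) and 25.4%. The tRNA share was below the protein-coding share at the top of the list, close to it midway and above it at the full list. Below the IDR cut, 176 tRNA genes had a pooled peak with a signal from 7.47 to 41.3 (median 20.6), and in 104 of them the strongest pooled summit lay within 100 bp of the start.

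The 10 genes with the highest IDR signals were named, each with the values of both replicates. ZK994.t2, a lysine tRNA gene (V, 8499564 to 8499636, minus strand) inside pxn-1 but outside its exons, had the highest signal, 277. Its replicate signals were 143 and 147 (145 ± 2.29, SD, n = 2), and its summit was far out, at -888. K11H12.t1 (IV, 658181 to 658266, plus strand) had 265, with 137 and 134 in the replicates (136 ± 1.90). It lies inside K11H12.8 on the same strand, and the summit is 213 bp upstream of the start of a short transcript of that gene, so it stands in the window of both. It is the sole selenocysteine tRNA gene in the annotation.

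C28G1.t1, a glutamate tRNA gene (X, 8836113 to 8836184), had a signal of 212 at -111 and the widest spread among the 10, with 132 in replicate 1 and 81.9 in replicate 2 (107 ± 35.1). Its summit lies 14 bp from the start of C28G1.2 and is also in the window of sec-15, and the gene overlaps an exon of C28G1.2. M02F4.t1 (glycine, X, 3036164 to 3036235, plus strand) and M02F4.t2 (glutamate, X, 3035976 to 3036047, minus strand) face away from each other and share 1 peak of signal 200.8. The replicates had 114 and 88.7 (101.3 ± 17.8), and the summit is at -52 of one and -65 of the other, 1809 bp from the nearest protein-coding start. The pair shows a tRNA start peak with no protein-coding start near it. C33G3.t2 (X, 14063946 to 14064018, minus strand) had 199.8 at -39, with replicates of 112 and 88.4 (100.1 ± 16.6), and its summit is 3927 bp from the nearest protein-coding start.

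F41D9.t3, an asparagine tRNA gene (X, 8404499 to 8404571) inside sulp-3 on the opposite strand, had 196 at -52, with replicates of 93.5 and 103 (98.01 ± 6.42). F47G6.t1, an arginine tRNA gene (I, 1447138 to 1447210) inside spe-15, had 189 at -89, with 95.3 and 96.3 (95.8 ± 0.734). Y38E10A.t1, an alanine tRNA gene (II, 12678314 to 12678385), had 177 at -245, with 88.5 and 92.2 (90.4 ± 2.62), and its summit is in the windows of Y38E10A.22 and Y38E10A.24 as well. C37A2.t1, a cysteine tRNA gene (I, 6781803 to 6781874) inside cye-1, had 165 at -51, with 100.7 and 65.9 (83.3 ± 24.6). Replicate 1 was the higher in 6 of these 10 genes, counting the shared M02F4 peak at both. Among genes whose own start is nearer to the summit than any protein-coding start, the 10 highest drop C28G1.t1 and add C27A2.t1, an isoleucine tRNA gene (II, 5057447 to 5057520), with 163 at -18 and replicates of 91.9 and 73.7 (82.8 ± 12.9).

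The peaks were mostly those of single tRNA genes. Of the 163, 142 had 1 tRNA gene in reach, 19 had 2 and 2 had 3. The larger groups were F08G5.t1, F08G5.t2 and F08G5.t3 on IV (signal 62.2) and H08J11.t3, H08J11.t4 and H08J11.t5 on X (61.7). Of the 19 pairs, 9 were head to head and 10 on the same strand. The 612 genes formed 480 loci when starts within 1000 bp were joined, and 382 of the loci held a single gene. Among single genes 128 (33.5%) had an IDR peak and 119 (31.2%) had a summit within 100 bp. Among the 230 genes in shared loci 58 (25.2%) had a peak and 36 (15.7%) had one within 100 bp.

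Most summits were away from protein-coding starts. For 136 of the 186 genes (120 peaks) the summit lay in no protein-coding window, and for 175 of 186 the tRNA start was nearer than any protein-coding start. The median signal was 73.2 outside protein-coding windows and 68.5 inside them. Of the 386 tRNA genes with no protein-coding start within 1000 bp, 110 (28.5%, interval 24.0 to 33.3%) had an IDR peak, and of the other 226 genes 76 (33.6%, 27.5 to 40.2%) had one. Inside protein-coding genes lay 290 tRNA genes, 283 of them clear of every exon, which places them in introns. An IDR peak was found at 54 of 167 (32.3%) on the host gene's strand, at 38 of 123 (30.9%) on the other strand and at 94 of 319 (29.5%) between protein-coding genes. The intervals of these 3 shares overlap.

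The X chromosome carried 276 of the 612 tRNA genes. An IDR peak was found at 78 of them (28.3%, interval 23.0 to 34.0%) and at 108 of 336 autosomal tRNA genes (32.1%, 27.2 to 37.4%). For protein-coding genes the shares were 11.3% on X (308 of 2731) and 17.8% on the autosomes. With no protein-coding start within 1000 bp, 56 of 201 tRNA genes on X (27.9%) and 54 of 185 on the autosomes (29.2%) had a peak. At the 2109 strongest peaks, 31 X-linked tRNA genes (11.2%) and 148 X-linked protein-coding genes (5.42%) had one, so on X the tRNA share was the higher at that level too. Median signals were 75.6 on X and 68.5 on the autosomes.

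Among the autosomes, III had the highest share, 29 of 64 genes (45.3%, interval 32.8 to 58.3%), and V the lowest, 17 of 78 (21.8%, 13.2 to 32.6%). Chromosomes I (21 of 66, 31.8%), II (18 of 57, 31.6%) and IV (23 of 71, 32.4%) lay between them. Protein-coding genes followed the same ends, with 27.2% on III and 10.3% on V, and 24.8, 17.0 and 16.5% on I, II and IV. The intervals of III and V just fail to overlap, and those of the other chromosomes overlap both. The median signal was 84.3 on III, 80.0 on I, 72.5 on II, 62.2 on IV and 59.2 on V. Beyond the genes already named, the highest signals on each autosome were at F58D5.t1 (valine, I, 155 at -452, 516 bp upstream of hrpr-1), W09G10.t1 (histidine, II, 146 at -35), W09D6.t1 and W09D6.t2 (proline, III, 159 at -70 and -38, 1 shared peak), K08E7.t1 (lysine, IV, 153 at -64) and F57F5.t1 (isoleucine, V, 149 at -31). The next were K02B12.t1 (glutamate, I, 117), W09G10.t3 (threonine, II, 128), F56F3.t1 (arginine, III, 147), C14B9.t2 (leucine, III, 136), F29C4.t1 (arginine, IV, 107), C43G2.t1 (leucine, IV, 104), Y39B6A.t9 (phenylalanine, V, 103) and K06A4.t1 (alanine, V, 97.6).

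**Figure D2:**
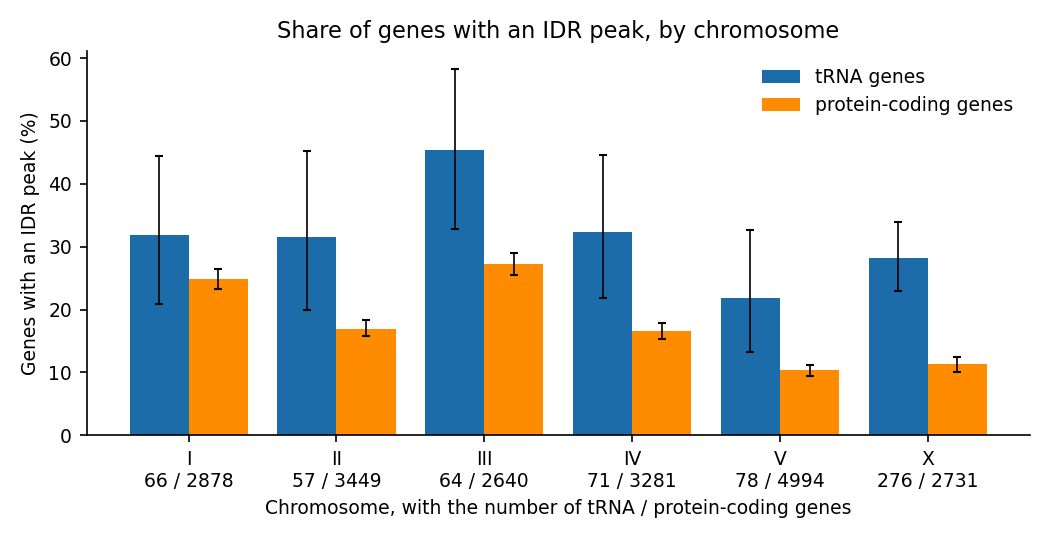
Percent of genes with an IDR peak in the window on each chromosome, for tRNA genes and protein-coding genes, with 95% Clopper-Pearson intervals as error bars and the number of genes under each pair. The tRNA bar is the taller on each chromosome, by the least on I (31.8 against 24.8%), where the intervals overlap.

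The annotation gives the amino acid of the tRNA for all but 5 genes, and gives no anticodon. Those 5 (DY3.t2, C08E8.t3, C28G1.t5, F47E1.t3 and K02D3.t1) had no IDR peak. The single selenocysteine gene, K11H12.t1, had one and is left out of the order that follows. Among the other amino acids the highest shares were at glutamine tRNA genes (12 of 27, 44.4%, interval 25.5 to 64.7%), phenylalanine (6 of 14, 42.9%) and valine (13 of 31, 41.9%). The lowest were at glycine (8 of 55, 14.5%, interval 6.50 to 26.7%), methionine and asparagine (3 of 20 each, 15.0%), tryptophan (2 of 12, 16.7%) and histidine (4 of 20). The rest ran from serine (11 of 39, 28.2%) to lysine (17 of 46, 37.0%). Every amino acid had at least 1 gene with an IDR peak. The intervals of glutamine and glycine, the ends of this order, overlap, so no order among amino acids is firm. The order also changed when only summits within 100 bp of the start were counted. Glutamine then had 25.9%, phenylalanine 35.7%, valine 29.0% and glycine 10.9%, where all tRNA genes had 25.3%. The 15 of 42 proline genes with a peak had a median signal of 111, the highest after the single selenocysteine gene.

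**Figure D3:**
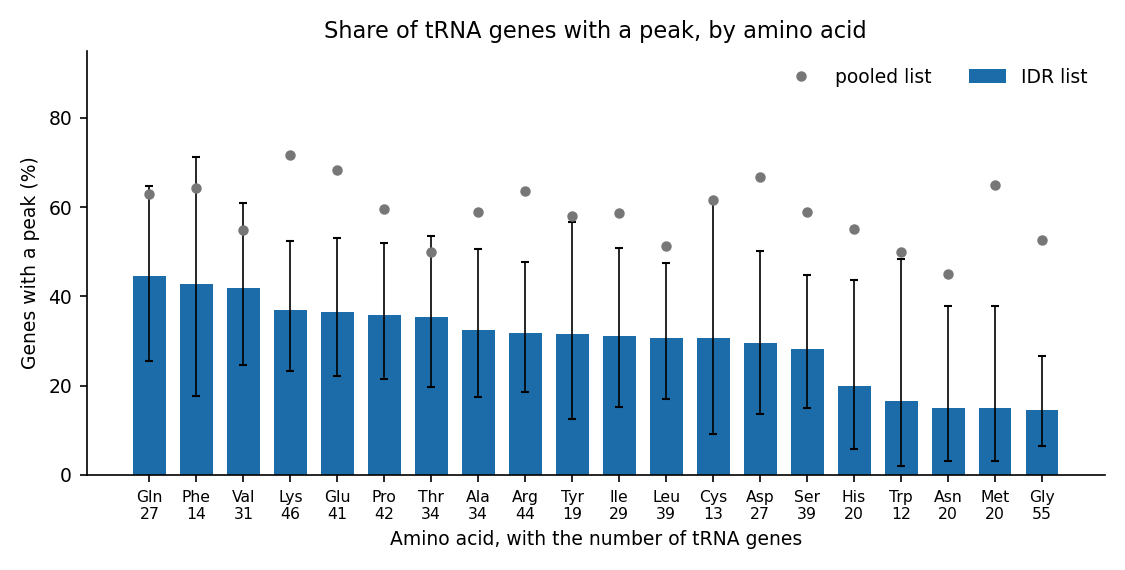
Percent of tRNA genes with an IDR peak (bars, with 95% Clopper-Pearson intervals) and with a pooled peak (points) by the amino acid of the tRNA, with the number of genes below and the single selenocysteine gene not drawn. IDR shares run from 44.4% for glutamine to 14.5% for glycine, and the wide intervals of neighbouring bars overlap.

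Within sets of identical genes some copies had a peak and others did not. The 612 genes have 200 distinct sequences, and 469 genes have at least 1 identical copy. Of 32 families with 5 or more copies (402 genes), 31 held both genes with and genes without an IDR peak. The share within a family ran from 0 to 80%. The family with no IDR peak is a leucine family of 7. The largest, a glycine family, had an IDR peak at 5 of 29 copies and a pooled peak at 17, and a lysine family had 10 and 22 of 25. Genes without a copy had an IDR peak in 27 of 143 cases (18.9%, interval 12.8 to 26.3%) and genes with one in 159 of 469 (33.9%, 29.6 to 38.4%). The share did not rise further with copy number, with 40.3% for 2 to 4 copies, 30.6% for 5 to 9, 34.3% for 10 to 19 and 31.9% for 20 or more. Reads within identical copies cannot be placed on 1 copy, and the sources used here do not say how the authors treated such reads.

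**Figure D4:**
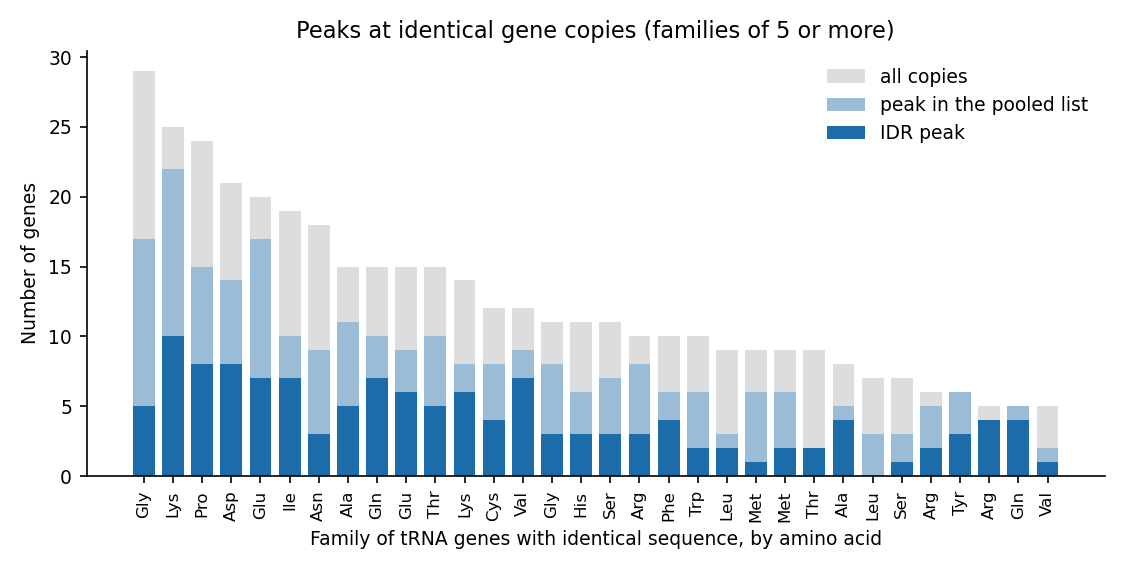
Number of genes in each of 32 families of identical tRNA genes with 5 or more copies (grey), with a pooled peak (light blue) and with an IDR peak (dark blue), labelled by amino acid. Dark bars are shorter than the grey ones in every family, with 5 of 29 copies in the largest and 4 of 5 in the families with the highest share.

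The proline family of 24 identical copies is shown because its genes share every base and differ in peaks. The gene is printed once, with the B box core in capitals.
W09D6.t2 (chrIII:11066848-11066919, minus strand): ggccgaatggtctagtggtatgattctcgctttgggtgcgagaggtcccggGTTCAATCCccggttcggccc
An IDR peak was found at 8 of the 24 copies and a pooled peak at 15. The IDR signals were 159 at W09D6.t1 and W09D6.t2 (III, 1 shared peak), 130 at F46G11.t1 and F46G11.t2 (X, 1 shared peak), 118.7 at R04D3.t3, 113 at ZK899.t1, 56.3 at H06A10.t1 and 53.2 at T22F3.t2. Of the last 4, the summits were at -938, -17, 18 and -664. The R04D3.t3 peak is shared with its neighbour R04D3.t2, outside this family, and its summit lies 58 bp from the start of R04D3.t2. The T22F3.t2 summit lies 185 bp from the nearest protein-coding start and is in the window of T22F3.2. Copies with no peak in their window in any list were ZK970.t2 (whose nearest IDR summit is the one at -1061), R11G10.t1, R11G10.t2, F23D12.t1, F23D12.t2 and ZK678.t3. The 40 bp upstream of 3 copies with an IDR peak read as follows, with the summits at -38, -70 and -64.
W09D6.t2 (chrIII:11066920-11066959, minus strand): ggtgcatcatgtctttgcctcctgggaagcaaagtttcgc
W09D6.t1 (chrIII:11066987-11067026, plus strand): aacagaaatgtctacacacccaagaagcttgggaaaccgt
F46G11.t2 (chrX:5801283-5801322, minus strand): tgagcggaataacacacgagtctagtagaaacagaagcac
The 40 bp upstream of 3 copies with no peak in the window in any list read as follows. The flanks of the R11G10 pair resemble each other.
ZK970.t2 (chrII:10304971-10305010, plus strand): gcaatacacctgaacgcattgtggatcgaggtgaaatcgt
R11G10.t2 (chrV:13507275-13507314, minus strand): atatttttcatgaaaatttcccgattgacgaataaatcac
R11G10.t1 (chrV:13509653-13509692, plus strand): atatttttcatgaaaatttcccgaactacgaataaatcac
T23F1.t2, also of this family, and its neighbour T23F1.t1 had peaks of 62.4 and 57.6 in replicates 1 and 2 but no pooled summit in the window. They are among 22 tRNA genes with a peak in both replicates and none in the pooled list, and had the highest replicate signals of these.

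The flanks differed in base composition between genes with and without peaks. The 100 bp upstream of the start had a median GC of 47% (quartiles 42 and 50) at the 155 genes with an IDR summit within 100 bp, 38% (32 and 44) at the 167 genes in no list and 42% (35 and 47) over all tRNA genes. No test was made, and the part of base composition in peak calling was not tested. The gene's own elements were nearly equal, with the B box core in 97.4 and 94.6% of these sets and the A box match in 74.8 and 70.7%. A TTTT within 30 bp after the gene was present in 99.4 and 97.0%. Genes without an identical copy made up 14.2% of the first set and 39.5% of the second.

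Sequences around the summits themselves, 50 bp to each side, were also searched. Here 147 tRNA peaks with a summit within 100 bp of a tRNA start were set beside the 4055 other IDR peaks. A peak counted as other if it was the strongest in no tRNA gene's window. Both strands were searched, and no word searched holds another. The first 3 words come from earlier results on the whole list, of which peaks at tRNA genes are 3.86%. That choice can favour the other peaks, so the shares of these words are a description only. GAGAGA was found in 36 tRNA peaks (24.5%) and in 28.8% of the others. GACGCA was found in 7 tRNA peaks (4.76%) and in 17.9% of the others. ACCGTA was found in 1 tRNA peak (0.680%) and in 8.01% of the others. The B box core was found in 42 (28.6%) and in 2.22%, and the tRNA gene itself reaches into many of these windows. TTTT was found in 71.4 and 81.4%, and the median GC was 50.5 and 45.5%.

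The IDR list was made from the 2 replicate lists and the pooled list, so the agreement of the replicates at these genes is not independent of it. The replicate values are given as a description. The 4218 strongest pooled peaks had the same lowest signal as the IDR list, 42.2, so the list acts as a cut on pooled signal. A gene with an IDR peak need not have a summit in its window in each replicate's list. Of the 186 genes, 183 had a peak in replicate 1 and 186 in replicate 2. Over these 183 genes the median signal was 40.4 in replicate 1 and 35.2 in replicate 2, with replicate 1 higher at 119 and replicate 2 higher at 64. The median log2 ratio of replicate 1 to replicate 2 was 0.19, against 0.31 over 3361 protein-coding genes with an IDR peak. The correlation of the signals across the 183 genes was 0.68 (Spearman's rho) and 0.69 (Pearson's r of log2 signals), and 0.91 and 0.93 across the protein-coding genes. Genes are not independent here, as some share a peak, and the range of signals is narrower at tRNA genes. Over all 328 tRNA genes with a peak in both lists rho was 0.81. The summits of the replicates lay within 100 bp of each other at 170 of the 183 genes, with a median gap of 25 bp.

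**Figure D5:**
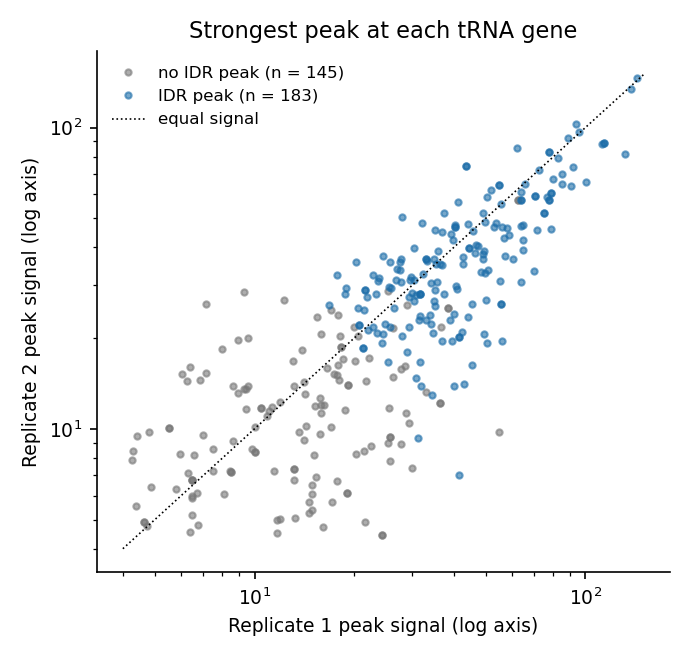
Signal of the strongest peak at each tRNA gene in replicate 1 (horizontal, log axis) and replicate 2 (vertical, log axis), for 183 genes with an IDR peak (blue) and 145 genes with a peak in both lists but no IDR peak (grey), with a dotted line of equal signal. More blue points lie below the line (119) than above it (64).

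The protein-coding genes of the tRNA pathway were also looked up. Of 17 genes for RNA polymerase III subunits, TFIIIB, TFIIIC and their regulator, 9 (52.9%) had an IDR peak in the same window and 13 a pooled peak, against 16.9% and 39.0% of all protein-coding genes. The highest signal, 1470 at -264, was at mafr-1, the worm's counterpart of the polymerase III repressor Maf1. Its replicate signals were 849 and 624. Next came rpb-10 (567 at -229), whose product is a subunit shared by the nuclear polymerases, and tftc-1 (237 at -137), a TFIIIC subunit. The polymerase subunit genes rpac-19 (122.7), rpb-12 (110), rpb-8 (98.2), rpb-6 (90.8), rpb-5 (77.7) and rpc-1 (78.8, at -991) also had one. The products of all these rpb genes are shared by the nuclear polymerases, so the share of 52.9% is not particular to polymerase III. At rpc-2, rpc-11, rpac-40 and tftc-5 a pooled peak was listed but no IDR peak. No peak in any list was found for brf-1 and tbp-1, which encode parts of TFIIIB, for tftc-3 or for rpc-25. Of 7 genes for tRNA processing and export, 4 (57.1%) had an IDR peak. These were popl-1, which encodes a subunit of RNase P (253 at -999), rtcb-1, the tRNA ligase (112 at -741), xpo-3, the tRNA exporter (82.7 at -233), and elpc-1, a part of the Elongator complex that modifies tRNA (60.1 at -96).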

How the data were processed

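Peaks were mapped in 2 biological replicates of 1 group. The authors' deposited peak lists give a signal per peak, called against a control alignment per the text listings deposited with them. The replicate lists were called on each replicate and the pooled list on both replicates together, and the IDR list was made from these 3. The caller, aligner, IDR cut-off and signal scaling are not stated there. The lists on ce11 were used, and those on ce10 were not used here.

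Genes came from Ensembl release 115 (WBcel235, the assembly of ce11), and names and amino acids from RefSeq on the same assembly. A gene was given the strongest summit from 1000 bp upstream to 200 bp downstream of its start (of any annotated transcript start, where a gene has several), and 95% Clopper-Pearson intervals were computed. No test was made between conditions, as there is 1 group. The lists hold no read counts, so no depth can be given. Named are the 10 genes with the highest IDR signal, the 10 highest whose own start is nearest, the 4 highest per chromosome, the 4 on each side of each window edge, loci sharing 1 peak, and protein-coding genes sharing a named summit. The members, lists and motifs were chosen with earlier results of these data known. The assignment of summits was tested on simulated data. Tables were made in pandas 2.3.3 and numpy 2.4.6 under Python 3.11.15, intervals with scipy 1.17.1 and plots with matplotlib 3.10.9.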

Additional observations from a re-analysis of the deposited data

How the results depend on the processing

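Each of 6 results was recomputed under 9 alternatives, and 39 of the 54 values moved by less than the spread used as a yardstick: the SD of the replicate medians for signal (4.17) and position (4.24 bp), the 95% interval for shares, and 1.5 times for counts. The SD for signal comes from the replicate lists, while most medians set beside it come from the IDR list. The scales of these lists may differ, so this yardstick is rough for signal. With the window from 500 bp upstream to 100 bp downstream the median position was -23, and with 2000 bp upstream the median signal was 78.9. With the stronger part of the IDR list the count fell to 65 genes, the median signal was 122, the position -39, and the shares 11.2% on X and 10.1% on the autosomes, as fewer peaks were counted. With each summit given to the nearest start of any gene the position was -23, and the shares were 21.0% on X and 26.5% on the autosomes. With tRNA genes near a protein-coding start left out, 110 genes had an IDR peak and 228 a pooled peak, of 386. With neighbouring tRNA genes joined the position was -23. Leaving out a replicate and taking the other's strongest peaks gave 177 to 186 genes, median signals of 35.3 to 41.4 on that list's own scale, positions of -29 to -26, and 26.4 to 28.6% on X, 31.0 to 31.8% on the autosomes and 379 to 390 genes for the longer list. No paired analysis was possible because the replicates form 1 group. The lists hold no read counts, so a missing peak says that none was listed, not that binding is absent.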
